A study of Mus musculus with 8 samples.

Results

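The ephrin, semaphorin and plexin genes encode cell surface and secreted cues by which cells repel or attract one another. They were taken as every probe set of the MOE430A and MOE430B arrays annotated with 1 gene symbol that named an Eph receptor (Epha, Ephb), an ephrin (Efna, Efnb), a semaphorin (Sema), a plexin (Plxn) or a neuropilin (Nrp1, Nrp2). The rule used symbols only and no measured value. It found 123 probe sets of 52 genes, among 45037 probe sets and 18193 named genes: 13 Eph receptors, 8 ephrins, 20 semaphorins, 9 plexins and 2 neuropilins. Ephb2 had no such probe set and was not analysed here.

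The RNA was that of putative stem cells, grown as primary cultures out of hind limb muscles of mice and purified in 1 of 2 ways. The 2 PP6 cultures were made by preplating, which sorts cells by their speed of attachment to plastic, and had no purity estimate. The 2 MACS cultures were Sca1+/CD45- cells taken with magnetic beads, with purity estimated by flow cytometry; Sca1 is a surface protein of many progenitors and CD45 the common leukocyte antigen. Both preparations grew in F10 Ham medium with 20% serum and antibiotics, and muscle cells were the stated contaminant of both; strain, genotype, age, number of animals and any pooling are not given in the labels. The cultures are numbered 2 and 3 in each group, and values below are given in that order. Whether equal numbers mark anything shared is not stated, so p-values measure only the spread between these samples, which may be technical. RNA concentration was 35 and 15 ng/ul in PP6 and 55 and 65 ng/ul in MACS. Fewer cells of a type and less RNA per cell cannot be told apart in such bulk samples.

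Eph receptors are receptor tyrosine kinases that bind ephrins on a neighbouring cell, and signals run into both cells. Ephrins of class A are held by a lipid anchor and those of class B span the membrane. Semaphorins signal through plexins, whose cytoplasmic part acts on small GTPases of the Ras family; secreted class 3 semaphorins mostly need a neuropilin as co-receptor, while class 4 to 6 semaphorins are membrane proteins and Sema7a carries a lipid anchor. In the limb these families steer motor axons and vessels, and satellite cells are known to secrete Sema3a after muscle injury.

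The comparison of PP6 with MACS asked how cells purified by preplating differ from cells sorted for Sca1. Most guidance genes differed little. Of the 38 genes and 56 probe sets bright enough to be tested, that is, above the median of their own array in at least 2 cultures, 0 probe sets passed an adjusted p of 0.05 in limma in either direction, and 0% of all 23963 tested probe sets did. At an unadjusted p under 0.05, 2 of the 56 probe sets were higher in PP6 (Ephb3 and Sema4f) and 4 were lower (2 of Plxna2, 1 of Nrp2 and 1 of Sema6a). Among all tested probe sets, 5.69% were higher and 5.83% lower at that p, so the members' shares of 3.57% and 7.14% lay near the background. Counted as 1 probe set a gene, 2 of 38 genes were higher (Ephb3 and Sema4f) and 1 was lower (Sema6a), against 5.81% and 5.44% of all 12278 tested genes. A fit without 1 culture leaves 1 culture in a group, so the number of genes called in such fits is not given. With each culture left out in turn, the difference ran from 1.47 to 3.41 for Ephb3 and from 1.19 to 4.32 for Sema4f. For Sema6a it ran from -0.65 to -0.59.

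The size of the differences was also that of the array as a whole. The median difference (PP6 minus MACS, log2 signal) was 0.045 over the 38 genes and 0.016 over all tested genes. The difference was under 0.5 log2 units in either direction for 26 of the 38 genes, or 68.4%, and for 67.9% of all tested genes. It was over 1 log2 unit for 3 genes, Epha4, Ephb3 and Sema4f, or 7.89%, against 9.75% of all tested genes. Both PP6 values lay above both MACS values for 14 of the 56 probe sets and below them for 16. Among all tested probe sets this held for 22.5% and 21.7%, and among the members for 25% and 28.6%. For 6 of the 56 (probe sets of Epha3, Epha4, Efna2, Efna4, Efnb1 and Plxna2) only 1 group was above the array median. The filter itself thus fixed their sign relative to the median of each array. Those medians ran from 9.14 to 9.30 on MOE430A and from 9.60 to 9.79 on MOE430B. A sign called fixed by the filter below is meant in this way.

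**Figure D1:**
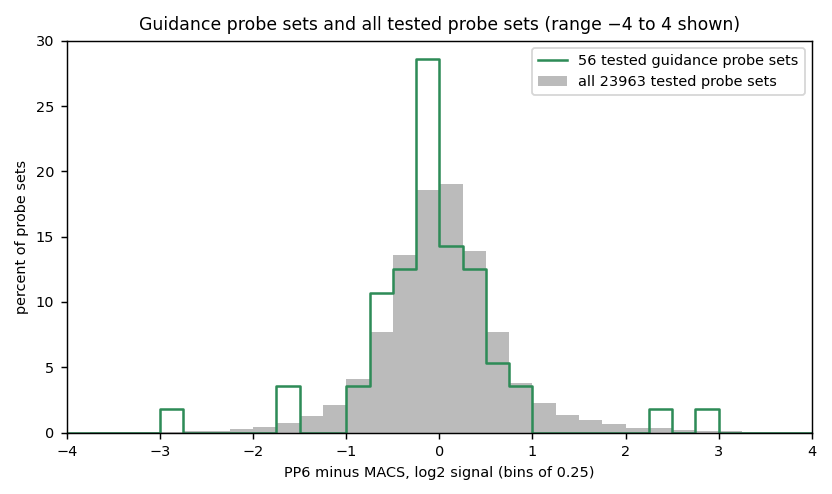
PP6 minus MACS difference in log2 signal (x axis, bins of 0.25) of the 56 tested guidance probe sets (green line) and of all 23963 tested probe sets (grey bars), as a percentage of each set (y axis). Members and background are both centred near 0, and the farthest members are Epha4 at -2.79 and Sema4f at 2.75.

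To show the start sites of the genes with a probe set at an unadjusted p under 0.05, the RefSeq promoters of Ephb3, Sema4f, Plxna2 and Nrp2 are printed 5′ to 3′, from 250 bases before to 50 bases after the start, with E-boxes in capitals. The E-box is the motif CANNTG, which reads the same on both strands and is bound by basic helix-loop-helix factors, Myod1 and Myog among them. Sema6a is named only.
Ephb3, GRCm38.p6 chr16:21204545-21204844, plus strand: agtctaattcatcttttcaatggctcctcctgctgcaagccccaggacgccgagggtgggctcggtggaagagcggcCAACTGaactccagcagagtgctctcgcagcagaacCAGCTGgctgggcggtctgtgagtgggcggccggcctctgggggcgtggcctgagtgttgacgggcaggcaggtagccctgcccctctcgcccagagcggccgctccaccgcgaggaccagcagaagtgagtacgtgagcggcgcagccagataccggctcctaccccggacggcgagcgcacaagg
Sema4f, GRCm38.p6 chr6:82939720-82940019, minus strand: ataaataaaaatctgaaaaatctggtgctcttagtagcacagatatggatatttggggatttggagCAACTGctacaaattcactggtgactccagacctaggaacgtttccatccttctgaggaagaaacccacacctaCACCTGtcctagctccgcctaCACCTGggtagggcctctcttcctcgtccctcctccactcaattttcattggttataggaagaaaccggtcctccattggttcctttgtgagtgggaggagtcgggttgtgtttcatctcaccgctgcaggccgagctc
Plxna2, GRCm38.p6 chr1:194619579-194619878, plus strand: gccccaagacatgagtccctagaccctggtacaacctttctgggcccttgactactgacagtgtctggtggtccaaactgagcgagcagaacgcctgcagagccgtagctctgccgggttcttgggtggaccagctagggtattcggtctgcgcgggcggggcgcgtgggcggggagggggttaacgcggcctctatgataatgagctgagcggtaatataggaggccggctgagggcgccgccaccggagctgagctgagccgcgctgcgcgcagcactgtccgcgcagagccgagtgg
Nrp2, GRCm38.p6 chr1:62703067-62703366, plus strand: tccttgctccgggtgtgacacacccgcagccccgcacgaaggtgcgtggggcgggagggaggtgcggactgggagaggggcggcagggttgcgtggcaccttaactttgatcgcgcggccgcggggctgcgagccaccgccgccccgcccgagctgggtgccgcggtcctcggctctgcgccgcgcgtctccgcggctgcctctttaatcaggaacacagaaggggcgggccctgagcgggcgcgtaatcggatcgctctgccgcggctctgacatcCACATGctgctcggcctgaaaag
The Ephb3 promoter held 2 E-boxes, that of Sema4f 3, that of Plxna2 0 and that of Nrp2 1. GC boxes, GGGCGG on either strand, numbered 2, 0, 2 and 5 in the same order, and none of the 4 held TATAAA on either strand. Over the 46 guidance genes with a RefSeq promoter of this length, 50% had an E-box, 78.3% a GC box and 2.2% TATAAA, against 68.8%, 46.3% and 13.3% of the promoters of 17492 protein-coding genes. Median GC content was 64.5% and 56.3%. These matches describe the letters of the windows and say nothing about binding.

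Among the tested receptor genes, the largest positive difference was that of Ephb3, an EphB receptor of epithelia and nervous tissue. Its log2 signal was 10.74 and 10.77 in the PP6 cultures, against 7.35 and 9.29 in the MACS cultures. The PP6 cultures were almost equal and the groups did not overlap, but the MACS cultures lay 1.94 apart and 1 of them was below its array median. The difference was 2.44 ± 0.71 (SE), or 5.42-fold, with an unadjusted limma p of 0.0154 and an adjusted p of 0.348. It was 1.47 without MACS replicate 2 and 3.41 without MACS replicate 3, and 1.54 with a floor at the median of each array. It was 2.45 with PP6 replicate 2 left out and 2.43 with PP6 replicate 3 left out. Only 1 probe set was annotated to Ephb3 alone, so its value could not be set beside another.

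The other EphB receptors showed smaller differences. Ephb1 had a log2 signal of 11.26 and 10.91 in PP6, against 10.48 and 10.82 in MACS, a difference of 0.44 ± 0.29 (SE, adjusted p = 0.613). Ephb4, which pairs with ephrin-B2 at the border of veins and arteries, stood at 7.86 and 9.46 in PP6 and at 7.10 and 9.34 in MACS. Replicate 3 was the higher culture in both groups for Ephb4, and its 95% interval of -2.47 to 3.35 held large differences of either sign. Ephb6, a receptor whose kinase domain is inactive, was below the array median in all 4 cultures and was not tested.

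EphA receptors were mostly dim: 18 of their 24 probe sets were below the array median in all 4 cultures, and 4 of 9 genes could be tested. Epha4, which steers limb motor axons, had a log2 signal of 8.71 and 5.41 in PP6, against 9.999 and 9.686 in MACS. Both PP6 cultures were lower, but they lay 3.30 apart, and the difference of -2.79 ± 1.29 (SE) had an adjusted p of 0.487. Leaving out PP6 replicate 3 gave -1.14, and leaving out PP6 replicate 2 gave -4.43. The other 4 probe sets of Epha4 were too dim to be tested, and with no filter the one that stood for the gene gave 0.08. Epha3 stood at 9.75 and 10.09 in PP6 and at 8.85 and 9.02 in MACS, a difference of 0.99 ± 0.46 (SE, adjusted p = 0.487), with 3 further probe sets far below the array median. Epha2, a receptor of epithelia and vessels, measured 9.74 and 9.34 in PP6 and 9.30 and 11.12 in MACS. MACS replicate 3 alone was high for Epha2, and without it the difference of -0.67 became 0.24. Epha7 read 9.84 and 9.93 in PP6 and 10.10 and 10.25 in MACS, a difference of -0.29 ± 0.33 (SE, adjusted p = 0.779) with no overlap.

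Ephrin genes, the ligands, had differences of -0.58 to 0.98 over 7 tested genes. Their median difference with the sign ignored was 0.32 log2 units, against 0.33 over all tested genes. Efna4 was the farthest, at 9.75 and 9.76 in PP6 against 8.90 and 8.66 in MACS, a difference of 0.98 ± 0.49 (SE, adjusted p = 0.522). Its cultures lay close together within each group, and both MACS values lay below the array median. Efna5, a class A ephrin that repels axons, stood at 11.91 and 11.54 in PP6 and at 11.29 and 11.96 in MACS, where the MACS cultures enclosed both PP6 cultures. Efna1 read 10.19 and 9.69 in PP6 and 10.50 and 9.73 in MACS, a difference of -0.17 ± 0.43 within the spread of the cultures. Efna2 read 8.85 and 8.77 in PP6 and 9.20 and 9.21 in MACS, a difference of -0.40 ± 0.57 close to the array median. The adjusted p of Efna5, Efna1 and Efna2 were 0.93, 0.906 and 0.827. Efna3 was above its array median in 1 culture only and was not tested; its brighter probe set read 10.31 and 9.69 in PP6 and 9.42 and 8.91 in MACS.

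Of the class B ephrins, Efnb2, the arterial partner of Ephb4, had a log2 signal of 10.68 and 10.37 in PP6, against 10.28 and 11.92 in MACS. As with Epha2, MACS replicate 3 alone was high, and without it the difference of -0.58 became 0.24. A further probe set of Efnb2 gave 10.80 and 10.04 in PP6 and 10.74 and 10.75 in MACS, a difference of -0.33 ± 0.35 (SE) in which that culture did not stand out. Efnb1, whose loss in humans causes craniofrontonasal syndrome, was measured by 3 tested probe sets, which gave 0.12, -0.23 and -0.97. The one that stands for the gene read 10.21 and 10.02 in PP6 and 10.44 and 10.26 in MACS (difference -0.23, adjusted p = 0.811), and the last 9.21 and 8.55 in PP6 and 9.80 and 9.90 in MACS. Efnb3, a midline ligand of the nervous system, read 9.40 and 9.61 in PP6 and 9.31 and 9.06 in MACS, a difference of 0.32 ± 0.47 (SE, adjusted p = 0.833).

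**Figure D2:**
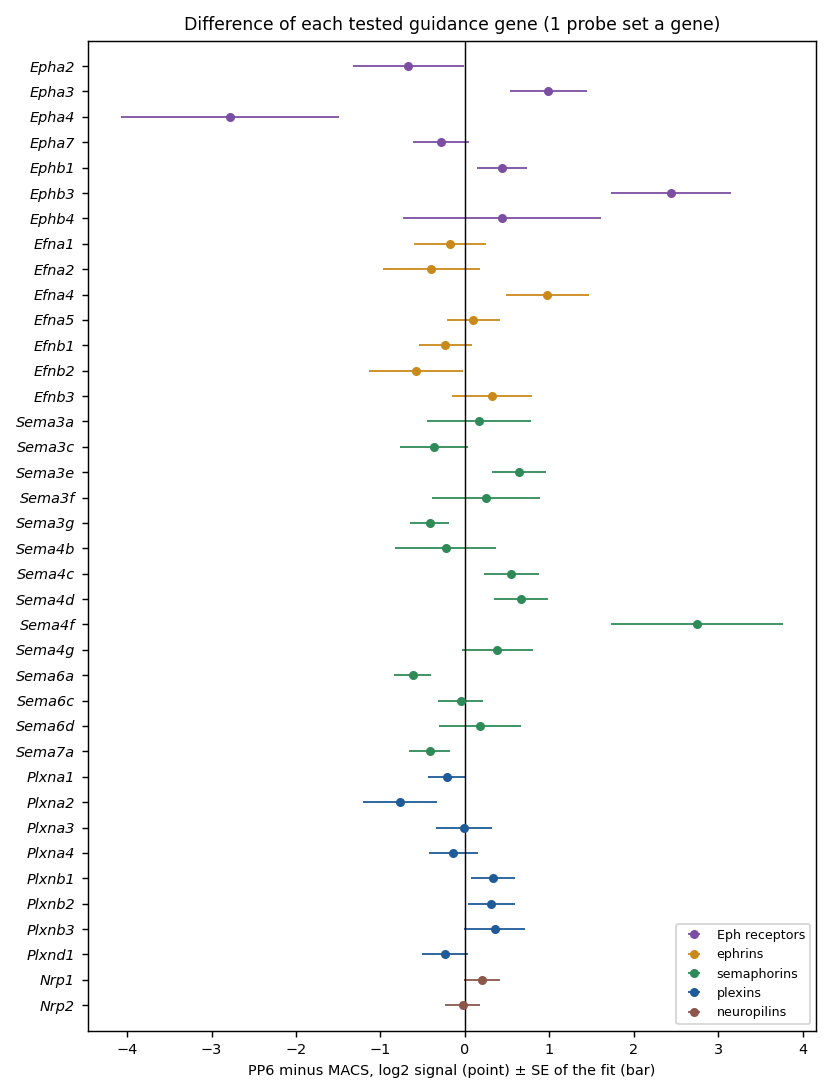
PP6 minus MACS difference in log2 signal (x axis; point, with the SE of the limma fit as a bar) of the 38 tested guidance genes (y axis), 1 probe set a gene, coloured by family. Most genes lie within 0.5 log2 units of 0, and the 3 beyond 1 log2 unit, Epha4, Ephb3 and Sema4f, have wide bars.

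Semaphorins of class 4 are membrane ligands that bind mostly plexin-B receptors. Both PP6 values lay above both MACS values in 4 of the 5 tested genes, which held for 22.5% of all tested probe sets; none of the 5 passed an adjusted p of 0.05, and the class as a whole was not tested. Sema4f stood at 10.81 and 11.13 in PP6, against 6.66 and 9.79 in MACS. The MACS cultures lay 3.13 apart, and the difference was 2.75 ± 1.02 (SE), or 6.73-fold, with an unadjusted limma p of 0.0375 and an adjusted p of 0.414. It was 1.19 without MACS replicate 2, 4.32 without MACS replicate 3 and 1.24 with a floor at the median of each array. The probe set carries the suffix _x_at, given to sets that can also bind other transcripts, and the gene's other probe set, too dim to be tested, read 7.35 and 9.22 in PP6 and 6.31 and 7.01 in MACS. Sema4d, also known as CD100 and abundant on lymphocytes, measured 10.44 and 10.81 in PP6 and 10.001 and 9.919 in MACS. Its difference was 0.66 ± 0.32 (SE, adjusted p = 0.502), and its 2 further probe sets were below the array median throughout. Sema4c, a ligand of plexin-B2 found in myoblasts, read 13.97 and 13.80 in PP6 and 12.90 and 13.78 in MACS. The second MACS value of Sema4c nearly reached the lower PP6 value, and the difference of 0.55 ± 0.33 (SE) was 0.11 without MACS replicate 2. Sema4g read 9.63 and 9.87 in PP6 and 9.37 and 9.36 in MACS, and Sema4b overlapped with a difference of -0.23 ± 0.59.

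The 3 plexin-B genes, receptors of that class, differed by small values, and none passed an unadjusted p of 0.05. Plxnb1, the receptor of Sema4d, had a log2 signal of 11.64 and 11.23 in PP6, against 11.09 and 11.12 in MACS. Its second probe set gave 12 and 9.78 in PP6 and 10.34 and 11.69 in MACS, where the groups overlapped and the cultures of each lay far apart. Plxnb2 stood at 11.44 and 11.50 in PP6 and at 10.91 and 11.41 in MACS, and Plxnb3 at 9.95 and 10.35 in PP6 and at 9.68 and 9.93 in MACS. The differences were 0.33 ± 0.26, 0.31 ± 0.28 and 0.35 ± 0.36 (SE) for Plxnb1, Plxnb2 and Plxnb3, with adjusted p of 0.668, 0.706 and 0.751. They kept their sign in all 16 alternatives, where the lowest values were 0.10, 0.06 and 0.15. The 95% interval of Plxnb2 was -0.37 to 1.00.

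Of the plexin-A receptors, which serve class 3 and class 6 semaphorins, Plxna2 was the one with values of size. The groups did not overlap in any of its 4 tested probe sets, 1 on MOE430A and 3 on MOE430B, with PP6 the lower group, as in 21.7% of all tested probe sets. One of the 4 passed the filter through the MACS cultures only, so its sign was fixed by the filter. The first of them by p read 10.41 and 9.15 in PP6 and 11.38 and 11.60 in MACS. Its difference was -1.71 ± 0.46 (SE), with an unadjusted limma p of 0.0114 and an adjusted p of 0.334. Leaving out PP6 replicate 2 gave -2.34, and leaving out PP6 replicate 3 gave -1.08. The one whose sign the filter fixed, the dimmest, read 8.98 and 7.50 in PP6 and 9.92 and 10.02 in MACS, and its difference of -1.73 ± 0.69 shrank to -0.21 with that floor. The brightest read 12.40 and 12.02 in PP6 and 12.73 and 12.75 in MACS, a difference of -0.53 ± 0.23. The MOE430A set, which stands for the gene, read 9.50 and 9.72 in PP6 and 10.85 and 9.92 in MACS, a difference of -0.77 ± 0.44 (SE, adjusted p = 0.564) that became -0.31 with MACS replicate 2 left out and -1.24 with MACS replicate 3 left out. PP6 replicate 3 was the lowest culture in the 3 MOE430B sets but not in the MOE430A set. The 4 values come from the same 4 cultures and are not independent. With its probe sets averaged, Plxna2 joined Sema6a as lower at an unadjusted p under 0.05.

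**Figure D3:**
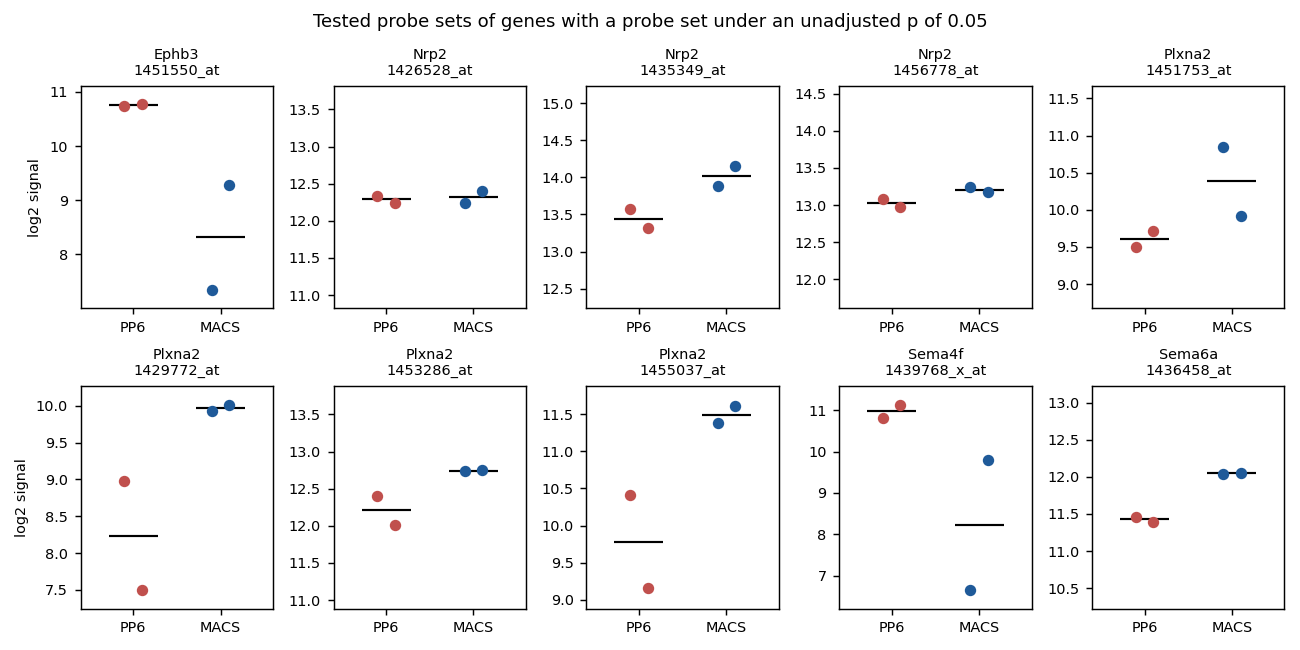
Log2 signal (y axis) in each culture (points; replicate 2 left, replicate 3 right; line, group mean) for PP6 (red) and MACS (blue), for all tested probe sets of the 5 genes with a probe set at an unadjusted p under 0.05. Ephb3 and Sema4f are high in both PP6 cultures and spread in MACS, Plxna2 is lower in PP6 in all 4 probe sets, and Sema6a separates by 0.62 with little spread.

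Plxna1, which pairs with neuropilins, read 12.28 and 12.47 in PP6 and 12.44 and 12.75 in MACS, a difference of -0.21 ± 0.23 (SE, adjusted p = 0.754). Plxna4 read 11.62 and 11.98 in PP6 and 12.22 and 11.66 in MACS, a difference of -0.14 ± 0.29 (SE, adjusted p = 0.886), and Plxna3 differed by -0.012 ± 0.33. The groups overlapped in all 3 genes, and the signs of Plxna3 and Plxna4 turned when PP6 replicate 2 or MACS replicate 2 was left out. Plxnd1, the endothelial receptor of Sema3e, stood at 10.62 and 10.88 in PP6 and at 11.10 and 10.87 in MACS, a difference of -0.24 ± 0.27 (SE, adjusted p = 0.779). Plxnc1, the receptor of Sema7a on leukocytes and neurons, was too dim to be tested: 5 of its 6 probe sets were below the array median in all 4 cultures.

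Sema6a, a membrane semaphorin that binds Plxna2 and Plxna4, gave the tightest of these differences. Its log2 signal was 11.46 and 11.39 in PP6, against 12.04 and 12.05 in MACS. The 2 cultures lay 0.065 apart in PP6 and closer still in MACS, and the groups did not overlap. The difference was -0.62 ± 0.22 (SE), or 1.54-fold, with an unadjusted limma p of 0.0315 and an adjusted p of 0.402, and it lay between -0.65 and -0.59 whichever culture was left out. With any 1 culture left out its unadjusted p was 0.0774 to 0.123. A second, dim probe set read 7.87 and 7.55 in PP6 and 9.06 and 9.11 in MACS, and another, dimmer still, ran the other way at 7.36 and 5.90 in PP6 and 6.45 and 4.60 in MACS. Of the other class 6 members, Sema6c differed by -0.051 ± 0.26. Sema6d, a ligand of Plxna1, was measured by 4 tested probe sets with differences of -0.50 to 0.18. The brightest of them read 14.11 and 13.48 in PP6 and 14.26 and 14.34 in MACS, while the MOE430A set that stands for the gene gave 0.18 ± 0.48. Sema6b was below the array median in every culture.

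Class 3 semaphorins, the secreted ligands, had differences of both signs, none of which passed an unadjusted p of 0.05. Sema3c stood at 12.72 and 13.01 in PP6 and at 13.52 and 12.89 in MACS on its brighter probe set, a difference of -0.33. Its MOE430A set, which stands for the gene, read 9.48 and 9.72 in PP6 and 10.20 and 9.73 in MACS, a difference of -0.36 ± 0.40 (SE, adjusted p = 0.765). Sema3g read 11.56 and 11.61 in PP6 and 12.13 and 11.87 in MACS, a difference of -0.42 ± 0.23 (SE, adjusted p = 0.552). Sema3e, the ligand of Plxnd1, read 10.94 and 10.76 in PP6 and 10.46 and 9.95 in MACS, a difference of 0.64 ± 0.32 (SE, adjusted p = 0.52). The Sema3e set lies on MOE430B, and its 3 sets on MOE430A were below the array median in every culture. Sema3a, the satellite cell factor, was near the array median, at 9.82 and 8.72 in PP6 and 8.91 and 9.28 in MACS, and the groups overlapped. Sema3f, which prefers Nrp2, read 12.23 and 10.58 in PP6 and 10.60 and 11.71 in MACS on an _x_at probe set. Replicates of Sema3f lay over 1 log2 unit apart in both groups, so no difference could be read from it. Sema3b and Sema3d were below the array median throughout.

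Sema7a, which binds integrins and Plxnc1, stood at 12.17 and 12.52 in PP6 and at 12.92 and 12.61 in MACS, a difference of -0.42 ± 0.24 (SE, adjusted p = 0.569). Class 5 semaphorins could not be tested, since no probe set of Sema5a or Sema5b was above the array median in more than 1 culture.

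The neuropilins were bright, and all but 1 of their 7 tested probe sets differed by less than 0.5 log2 units. Nrp1, the co-receptor of Sema3a and of VEGF, had a log2 signal of 12.83 and 12.63 in PP6, against 12.63 and 12.44 in MACS, a difference of 0.20 ± 0.21 (SE, adjusted p = 0.756). Its 4 probe sets, all above the array median in every culture, gave -0.13 to 0.22, and the 95% interval of the first was -0.33 to 0.73. Nrp2, the co-receptor of Sema3f, stood at 12.34 and 12.24 in PP6 and at 12.24 and 12.40 in MACS on its MOE430A set, a difference of -0.028 ± 0.21 (SE, adjusted p = 0.974). Its brightest set, on MOE430B, read 13.57 and 13.31 in PP6 and 13.88 and 14.15 in MACS, a difference of -0.58 ± 0.22 (SE) with an unadjusted limma p of 0.0398 and an adjusted p of 0.418. Another set of Nrp2 gave -0.18 ± 0.19. The 3 sets thus differed in size, and with quantile normalization the MOE430A set was at 0.019 and the brightest at -0.34.

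**Figure D4:**
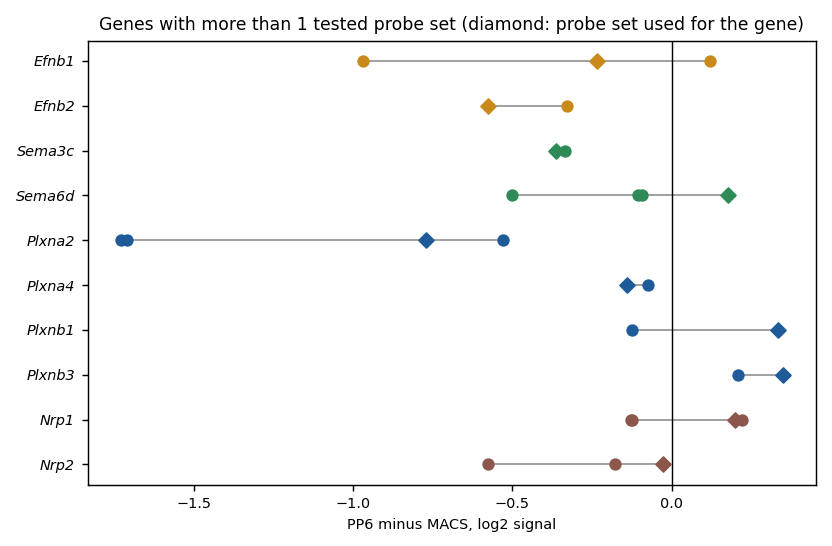
PP6 minus MACS difference in log2 signal (x axis) of each tested probe set of the 10 guidance genes with more than 1 (y axis); the diamond is the set used for the gene and the grey line spans the sets. Sets share their sign in 6 genes, Plxna2 with the largest values among them, and differ in sign in 4: Efnb1, Sema6d, Plxnb1 and Nrp1.

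Genes with more than 1 probe set often spread widely once dim sets are counted. Among the Eph receptors the sets of a gene lay between 0.049 and 1.10 for Epha1, between 0.69 and 1.16 for Epha3, between -2.79 and 0.43 for Epha4, between -0.91 and 2.45 for Epha5 and between -2.23 and 0.92 for Epha7. Among the ephrins they lay between -1.59 and -0.17 for Efna1, between -0.40 and -0.12 for Efna2, between -0.25 and 0.83 for Efna3, between 0.10 and 0.12 for Efna5, between -0.97 and 0.12 for Efnb1 and between -0.58 and 1.75 for Efnb2. Only the sets of Epha1, Epha3, Efna1, Efna2 and Efna5 kept to 1 side in these families.

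Of the semaphorins, all sets were positive for Sema3a (0.17 to 0.28), Sema3b (0.21 to 2.73), Sema3f (0.25 to 2.01), Sema4a (1.77 to 2.17), Sema4f (1.63 to 2.75) and Sema5b (0.064 to 1.22). All were negative for Sema3c (-0.36 to -0.33), Sema3d (-0.89 to -0.096), Sema4b (-0.29 to -0.23) and Sema7a (-0.42 to -0.38). Both signs occurred for Sema3e (-0.069 to 1.43), Sema4d (-0.91 to 0.66), Sema5a (-1.08 to 1.34), Sema6a (-1.38 to 1.10), Sema6c (-0.051 to 1.34) and Sema6d (-0.50 to 0.18). Of the plexins and neuropilins, Plxna1 spanned -0.45 to -0.21, Plxna2 -1.73 to -0.53, Plxna3 -0.012 to 0.11, Plxna4 -0.14 to -0.074, Plxnb1 -0.12 to 0.33, Plxnb3 0.21 to 0.35, Nrp1 -0.13 to 0.22 and Nrp2 -0.68 to -0.028. Plxnc1, dim throughout, spanned -0.20 to 1.43.

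The 14 genes that could not be tested were Epha1, Epha5, Epha6, Epha8, Epha10, Ephb6, Efna3, Sema3b, Sema3d, Sema4a, Sema5a, Sema5b, Sema6b and Plxnc1. Of the 67 probe sets below the filter, 17 had both PP6 values above both MACS values and 5 the reverse, against 23.6% and 12.8% of all probe sets below it. Dim signals were thus higher in PP6 more often than lower across the arrays as a whole, as they were here. Sema4a, a semaphorin of immune cells, read 9.21 and 9.70 in PP6 and 6.86 and 7.72 in MACS on one probe set, and 8.30 and 10.47 in PP6 and 8.09 and 7.14 in MACS on the other. Plxnc1 read 8.56 and 9.60 in PP6 and 7.35 and 7.96 in MACS on the 1 set that was above the array median in a culture. Epha1 read 9.06 and 9.64 in PP6 and 7.92 and 8.58 in MACS on 1 of its 3 sets. The 5 sets that ran the other way included a set of Epha7, at 4.85 and 6.62 in PP6 and 8.20 and 7.74 in MACS. They also included a set of Sema5a, at 7.01 and 5.66 in PP6 and 7.79 and 7.03 in MACS. With no filter, Epha5 passed an unadjusted p under 0.05 as higher, on a set that read 7.45 and 7.88 in PP6 and 5.97 and 4.47 in MACS, all of them below the array median.

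Marker genes of some cell types, but not of all, differed between the preparations. The mean log2 signal of 12 leukocyte markers was 10.16 and 11.52 in PP6, against 8.64 and 8.88 in MACS. Of these, 11 of the 11 tested were higher at an unadjusted limma p under 0.05. Cd53, Ptprc, Fcer1g and Coro1a passed the filter through the PP6 cultures only, so the filter fixed their sign. For 12 muscle differentiation markers the mean was 10.12 and 11.85 in PP6 and 8.21 and 8.23 in MACS, with 10 of the 10 tested higher. Acta1, Tnnc1, Tnnt1, Tnnt3, Tnni1, Mylpf and Myh3 also passed the filter through the PP6 cultures only, which fixed their sign. Myh8, not tested, ran the other way at 4.34 and 7.10 in PP6 and 7.48 and 8.01 in MACS. Myl1, not tested, overlapped. For 10 endothelial markers the mean was 10.21 and 10.26 in PP6 and 11.18 and 10.79 in MACS, with 3 of 9 lower. Fibroblast markers read 13.59 and 13.51 in PP6 and 12.33 and 13.01 in MACS (6 of 9 higher), Schwann cell markers 10.02 and 9.95 in PP6 and 8.62 and 9.22 in MACS (2 of 5 higher), and pericyte and smooth muscle markers 10.40 and 10.05 in PP6 and 9.16 and 9.69 in MACS (2 of 6 higher). Muscle precursor markers read 9.94 and 9.61 in PP6 and 9.98 and 9.74 in MACS (1 of 6 higher, Des, and 1 lower, Pax7). Early response genes read 11.80 and 11.67 in PP6 and 11.92 and 12.12 in MACS (1 of 10 higher, 2 lower). Means took 1 probe set of each measured gene with no filter, and counts a tested one, so the sets differed for Pax7, Erg, Coro1a and Abcc9. The Pax7 set in the mean read 8.97 and 8.65 in PP6 and 8.94 and 9.69 in MACS. The Pax7 set called lower read 9.78 and 10.57 in PP6 and 11.38 and 12.10 in MACS. Cdh19, a Schwann cell marker called higher, likewise passed the filter through the PP6 cultures only. Among all 12278 tested genes, 5.81% were higher and 5.44% lower at an unadjusted limma p under 0.05. The median difference of the tested members was 2.16 for leukocyte, 3.41 for muscle differentiation and -0.44 for endothelial markers, against 0.016 over all genes. The part of these cells in the values of Sema4a, Sema4d, Plxnc1, Sema3g, Plxnd1, Ephb3 or any other guidance gene was not tested. As a check of the labels, Ptprc, the CD45 gene, read 9.71 and 11.43 in PP6 and 8.25 and 8.67 in MACS, and Myod1, the myoblast factor, 12.93 and 12.34 in PP6 and 12.92 and 12.73 in MACS. Of the 8 muscle precursor markers 5 were above the array median in all cultures, and Myf5 and Msc were below it in all. MAS5 signals have no zero, so no marker could be called absent. Ly6a, the Sca1 gene, was not analysed here.

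Genes that work beside these families were described by the same fit. Of 15 tested members of the other guidance families, 1 had an unadjusted p under 0.05 on the higher side and 1 on the lower. Draxin, a netrin antagonist, read 11.87 and 11.62 in PP6 and 11.13 and 10.78 in MACS, a difference of 0.79 ± 0.26 (SE). Rgmb, a ligand of neogenin, read 12.21 and 12.29 in PP6 and 12.89 and 12.96 in MACS, a difference of -0.68 ± 0.20. The Robo ligand Slit2 stood just outside, at 10.30 and 10.05 in PP6 against 8.48 and 9.39 in MACS, followed by Unc5d with 0.68 ± 0.43. Robo1 differed by -0.70 ± 0.56 and Ntn4 by -0.18 ± 0.22. The median over the 15 was 0.24.

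Among 32 tested genes of Eph and plexin signal transduction, 1 was higher and 3 were lower. Abl2, a cytoplasmic kinase that links receptors to actin, read 12.33 and 12.11 in PP6 and 13.44 and 13.20 in MACS, a difference of -1.10 ± 0.22 (SE, adjusted p = 0.304). Abl1 differed by -0.98 ± 0.38 and Rnd1, a GTPase that binds plexins, by -0.66 ± 0.21. Rnd2, at 10.17 and 9.84 in PP6 and 8.84 and 8.38 in MACS, was higher. Rnd2 passed the filter through the PP6 cultures only, so the filter fixed its sign. Arhgef12, an exchange factor bound by plexin-B, differed by 0.40 ± 0.22 and Tiam1 by 1.90 ± 1.09, and the median over the 32 was -0.048. Of 7 tested VEGF ligands and receptors 1 was higher, Vegfd, at 10.69 and 10.45 in PP6 and 9.45 and 9.58 in MACS. Kdr, the VEGF receptor that partners Nrp1, differed by -0.36 ± 0.20, Vegfa by -0.46 ± 0.27 and Flt4 by -0.39 ± 0.25, with a median of -0.39. Of 6 tested proteases that shed or cleave such receptors 1 was higher, Mmp14, by 0.67 ± 0.24. Psen2 differed by 0.84 ± 0.35, Aph1a by 0.49 ± 0.36, Adam17 by -0.28 ± 0.23, Ncstn by -0.11 ± 0.35 and Adam10, which cleaves ephrins, by -0.081 ± 0.21, with a median of 0.20. None of these genes passed an adjusted p of 0.05, and the background by gene was again 5.81% higher and 5.44% lower.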

How the data were processed

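The authors' deposited tables give the linear MAS5 signal intensity of each probe set, named as such in the submitters' processing notes; a MAS5 version is not recorded there. All deposited arrays of a type had equal 2% trimmed means, 1501 for MOE430A and 1500 for MOE430B. No detection calls were used. Precision is limited by the number of arrays, 8 from 4 cultures.

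Signals were rescaled to the mean trimmed mean of their type and taken to log2 without a pseudocount. Control probe sets (64 on each type) were dropped, and of 100 probe sets found on both types the MOE430A value was kept. The fit was limma 3.58.1 in R 4.3.3 (lmFit, eBayes with trend, 5.67 total degrees of freedom of which 2 are residual, two-sided), with Benjamini-Hochberg adjustment over 23963 probe sets. A gene was represented by a tested MOE430A set where it had one, otherwise by a MOE430B set, taking the brightest. Of the probe sets, 20393 on MOE430A and 14674 on MOE430B carried 1 symbol, 691 and 245 several, and 1606 and 7656 none; only the first kind was named, with symbols updated by Entrez identifier. Values by culture are given for up to 4 genes of a family with the smallest p in each direction, for all probe sets at an unadjusted p under 0.05, and for others chosen after their values were seen. The members, lists and rule were chosen with earlier results of these data known. With 2 cultures against 2, no exact permutation p can be smaller than 0.333. Scanner settings showed, per array type, 1 lot, 1 station and 1 scan day, and 4 fluidics modules for the 4 cultures, so module and culture cannot be told apart. Replicate numbers are shared between the groups, but the labels do not tie equal numbers together. The alternatives were other scalings, filters and variance models, a pseudocount, a floor, other choices of probe sets, the replicate block and leaving out each culture. Promoters are from RefSeq (GRCm38.p6), with 46 of 52 genes matched by symbol.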

Additional observations from a re-analysis of the deposited data

How the results depend on the processing

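The count of guidance genes past an adjusted p of 0.05 in limma was 0 under every alternative that kept all cultures. Among all tested genes, 49 of 12278 passed it with each array type alone and 14 of 12278 with the floor. With the 75th percentile filter 5 of 7301 passed, and with the replicate block 2 of 12278. Genes higher at an unadjusted limma p under 0.05, 2 of 38 as reported, numbered 0 of 20 with the 75th percentile filter. They numbered 4 of 38 with each array type alone and 1 of 36 without _x_at and _s_at probe sets. With no trend, with a floor and with quantile normalization they numbered 3 of 38. The share of all tested genes, 5.81% as reported, was 6.62%, 6.77%, 5.61%, 5.45%, 7.27% and 5.51% in that order. Genes lower, 1 of 38 as reported, numbered 2 of 38 with a pseudocount and with probe sets averaged. They numbered 0 of 52 with no filter, and 0 of 38 with no trend and with the replicate block. The share of all tested genes lower, 5.44% as reported, was 5.58%, 6.08%, 3.96%, 3.92% and 4.12% in that order. With no filter a dim MOE430A set stood for Sema6a, with a difference of -1.38 and an unadjusted limma p of 0.0567. The Sema6a set reported above had an unadjusted limma p of 0.0321 in that fit. The median difference, 0.045, was -0.077 with arrays centred on their median (all genes -0.11, and 499 higher and 993 lower of them against 713 and 668), 0.092 with the floor, 0.19 with no filter, -0.10 with the 75th percentile filter, -0.020 without _x_at and _s_at sets, -0.032 with averaging and -0.080 to 0.15 with single cultures left out. Deviations of equally numbered cultures correlated at -0.033 over all tested probe sets, so the replicate block, which called 604 genes higher and 506 lower and 2 at an adjusted p under 0.05, rests on a number alone.

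Of the 38 genes, 22 kept their sign in every alternative and 16 turned in at least 1. Turned values were 0.019 for Nrp2 with quantile normalization, -0.018 for Efna5 with median centring, 0.083 for Efna2 with the floor, 0.92 for Epha7 and 0.081 for Epha4 with no filter, where other probe sets stood for them, and -0.50 and -0.13 for Sema6d with the 75th percentile filter and with averaging. With single cultures left out, differences ran -0.56 to 0.21 for Efna1, -0.24 to 0.44 for Efna5, -1.39 to 0.24 for Efnb2, -1.58 to 0.24 for Epha2, -0.68 to 1.56 for Ephb4, -0.10 to 0.048 for Nrp2, -0.20 to 0.18 for Plxna3, -0.42 to 0.14 for Plxna4, -0.38 to 0.72 for Sema3a, -0.58 to 1.08 for Sema3f, -1.01 to 0.55 for Sema4b, -0.21 to 0.11 for Sema6c and -0.26 to 0.61 for Sema6d. Where no cause is named, the cause was not tested. No detection calls were at hand, so dim signals have no stated bound.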
